A study of Mus musculus with 3 samples.

Results

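The members described here are 42 mouse genes of the cell cycle, of 31053 genes counted in each library: 20 genes with a role at the start of or during DNA replication (S members) and 22 genes of late G2 and mitosis (G2/M members). They were taken from a written list of symbols by a rule that used no measured value, although the list was chosen with earlier results of these data known, and all 42 were found by symbol in the 3 libraries. Each library is 1 single-cell suspension and 1 condition. In Co-Mac, bone marrow cells of C57/BL6 mice were grown with GM-CSF (granulocyte-macrophage colony-stimulating factor), and the cultures that got no vitamin D were taken 24 hours after day 7. VD-Mac cells were grown the same way and given 1 μM 1,25-dihydroxycholecalciferol (VD3, the active hormone form of vitamin D) for those 24 hours. The hSTSG library holds mouse cells from human split-thickness skin that had lain under the skin of C57/BL6 mice until day 14, with 5 mice pooled, and human RNA was not counted. GM-CSF was present in both cultures, and the sources used here do not say how many mice or dishes each culture library came from. The questions were which cell types of each library were dividing, and whether the members differed between VD3 and no VD3 within cells that were dividing.

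Cells prepare for replication in G1, when cyclin D with CDK4 or CDK6 releases E2F factors from the RB proteins, and E2F then turns on the genes that load the MCM helicase and copy DNA. From late S phase to mitosis a second wave follows, driven by B-MYB and FOXM1 with the MuvB complex, which binds an element called CHR (cell cycle genes homology region). It carries the mitotic cyclins, the spindle motors and the checkpoint kinases. Macrophages and their precursors divide in response to colony-stimulating factors, granulocytes stop dividing as they mature, and vitamin D is known to slow the entry into S phase in several cell types.

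Promoter sequences of both groups of members were searched for these motifs without any use of the counts. The RefSeq promoter table (build GRCm38.p6) covers 300 bases for each entry, from 250 before to 50 after the start of the gene, and holds 35 of the 42 members, 16 S and 19 G2/M. TTTCGCGC or TTTGGCGC, forms of the E2F site, on either strand stood in 6 of the 16 S members (37.5%, 95% Clopper-Pearson interval 15.2 to 64.6) and in 1 of the 19 G2/M members (5.26%, 0.133 to 26.0), intervals that overlap, and in 0.929% of the 27025 genes of the table. TTTGAA or TTCGAA, forms of the CHR, stood in 15 of the 19 G2/M members (78.9%, 54.4 to 93.9), in 4 of the S members (25.0%) and in 21.7% of all genes. CCAAT, the box bound by NF-Y, was found in 84.2% of the G2/M and 75.0% of the S members, against 41.1% of all genes. CHR and CCAAT occurred together in 14 of 19 G2/M members (73.7%), 3 of 16 S members and 8.61% of all genes. These are matches of letters in a fixed window, and overlapping matches were counted apart. A gene counted once if any of its windows held the motif.

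The stretches before the start of 3 S members with E2F matches and of 3 G2/M members with CHR matches are given here 5′ to 3′ on the strand of the gene, since they show both patterns and one gene that has both. Capitals mark the E2F and CHR matches, read on either strand. *Mcm5* and *Mcm6* encode subunits of the replicative helicase, and *Dtl* a receptor of the ubiquitin ligase that clears licensing factors in S phase. *Cdk1* encodes the mitotic kinase, *Top2a* the topoisomerase that untangles sister chromatids, and *Cdc20* the activator of the anaphase-promoting complex. The stretches lie at chr8:75109349-75109467 (+) for *Mcm5*, chr1:128359706-128359865 (-) for *Mcm6*, chr1:191575545-191575704 (-) for *Dtl*, chr10:69352913-69353072 (-) for *Cdk1*, chr11:99024200-99024349 (-) for *Top2a* and chr4:118437344-118437503 (-) for *Cdc20*.
Mcm5: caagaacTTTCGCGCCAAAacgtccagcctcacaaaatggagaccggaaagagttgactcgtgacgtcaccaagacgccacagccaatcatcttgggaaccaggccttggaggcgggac
Mcm6: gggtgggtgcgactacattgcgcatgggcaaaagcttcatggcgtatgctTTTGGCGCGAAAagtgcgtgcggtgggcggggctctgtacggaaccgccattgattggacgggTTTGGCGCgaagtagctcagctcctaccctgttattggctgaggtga
Dtl: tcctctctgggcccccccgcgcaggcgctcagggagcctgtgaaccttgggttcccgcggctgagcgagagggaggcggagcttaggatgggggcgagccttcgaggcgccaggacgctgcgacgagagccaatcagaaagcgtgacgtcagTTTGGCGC
Cdk1: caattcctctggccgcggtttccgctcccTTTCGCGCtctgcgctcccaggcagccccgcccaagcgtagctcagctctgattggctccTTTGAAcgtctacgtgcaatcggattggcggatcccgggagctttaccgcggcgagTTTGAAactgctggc
Top2a: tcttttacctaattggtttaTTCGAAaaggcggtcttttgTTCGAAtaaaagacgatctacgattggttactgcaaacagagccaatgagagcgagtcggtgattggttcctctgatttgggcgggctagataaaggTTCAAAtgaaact
Cdc20: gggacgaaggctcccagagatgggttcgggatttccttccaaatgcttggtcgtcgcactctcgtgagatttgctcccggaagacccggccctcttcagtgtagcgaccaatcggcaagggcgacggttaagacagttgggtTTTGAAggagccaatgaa
*Mcm5* held 2 overlapping E2F matches, *Mcm6* held 3, of which 2 overlapped, and *Dtl* held 1 that ends at the base before the start. *Cdk1* had 1 E2F match and 2 CHR matches, *Top2a* 3 CHR matches and *Cdc20* 1 CHR match between its 2 CCAAT boxes. *Cdk1* was the G2/M member with an E2F match.

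Kept cells numbered 7257 in Co-Mac, 8825 in VD-Mac and 2144 in hSTSG, with 132574308, 116461484 and 22646544 gene UMIs (unique molecular identifiers, each standing for 1 captured molecule) and medians of 15804, 12089 and 6638 per cell. Between 3 and 15 kept barcodes were shared by any pair of libraries. Clusters took names from cell type markers. Although the labels call both cultures macrophages, clusters with macrophage markers held 1849 Co-Mac and 1827 VD-Mac cells, and clusters with dendritic cell (DC) markers held more, 2730 and 3316. In each culture the macrophage-like cells came from 2 clusters. One had *Mmp12* and *Fn1* among its leading genes. The other, with 837 Co-Mac and 635 VD-Mac cells, was led by *Cenpf*, *Prc1* and *Top2a*, although all listed cell cycle genes were left out of the clustering, and had 0 macrophage markers among its 10 leading genes, so its name rests on its marker levels. With 1 library per condition there is no test and no p-value here, and all intervals are exact 95% intervals that cover counting error only, not differences between animals or cultures.

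Over all kept cells, both waves were highest in the untreated culture and lowest in the graft. S members summed to 820 CPM (UMIs of a gene scaled to a fixed total of gene UMIs) in Co-Mac, 593 in VD-Mac and 466 in hSTSG. G2/M members summed to 1259, 1190 and 229 CPM. G2/M members therefore made up 60.6% of all member UMIs in Co-Mac, 66.7% in VD-Mac (66.5 to 66.9) and 33.0% in hSTSG. A sum over a library cannot tell fewer dividing cells from less RNA per dividing cell. Counting was at the 3′ end, so CPM values are not divided by gene length and are compared between libraries, not between genes.

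The helicase subunits *Mcm2* to *Mcm7* had the same order of libraries, at 28.4 to 58.8 CPM in Co-Mac, 15.8 to 35.4 in VD-Mac and 13.3 to 20.4 in hSTSG. *Rrm1* and *Rrm2*, subunits of the reductase that makes deoxynucleotides, stood at 63.9 and 43.6 CPM in Co-Mac, 35.8 and 24.0 in VD-Mac, and 23.4 and 8.88 in hSTSG. *Tyms*, which makes thymidylate, had 60.0, 44.2 and 7.51 CPM in the same order. The loading factor *Cdc6* was the lowest S member of both cultures, with 8.15 and 4.29 CPM. *Pcna* and *Slbp* were the members with the highest level in the graft. *Pcna*, the sliding clamp of the polymerase, had 126 CPM there (121 to 131), 62.7 in Co-Mac and 39.9 in VD-Mac. *Slbp*, which binds histone mRNA, had 133 CPM in hSTSG, 70.7 in Co-Mac and 56.0 in VD-Mac. Both together gave 55.7% of the S member UMIs of the graft and 16.3% and 16.2% of those of the cultures. *Gmnn*, the licensing inhibitor geminin, and *Rfc2*, part of the clamp loader, were the S members with more CPM in VD-Mac than in Co-Mac (*Gmnn* 88.6 against 81.6, *Rfc2* 54.8 against 46.7).

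Among G2/M members the proliferation marker *Mki67* had 109 CPM in Co-Mac, 85.5 in VD-Mac and 32.6 in hSTSG. *Top2a* had 142, 102 and 25.3 CPM, the survivin gene *Birc5* 122, 114 and 11.7, and *Ube2c*, an enzyme of the anaphase-promoting complex, 140, 135 and 18.0. The mitotic cyclin *Ccnb1* was almost absent from the graft, with 2.87 CPM against 44.1 and 37.2. *Cenpa*, the histone of the centromere, had the widest gap between the cultures, with 93.7 CPM in Co-Mac and 174 in VD-Mac, and the highest level of a G2/M member in the graft, 43.8 CPM. In all, 6 G2/M members reached 10 CPM in the graft and 22 of 22 did so in each culture.

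**Figure D1:**
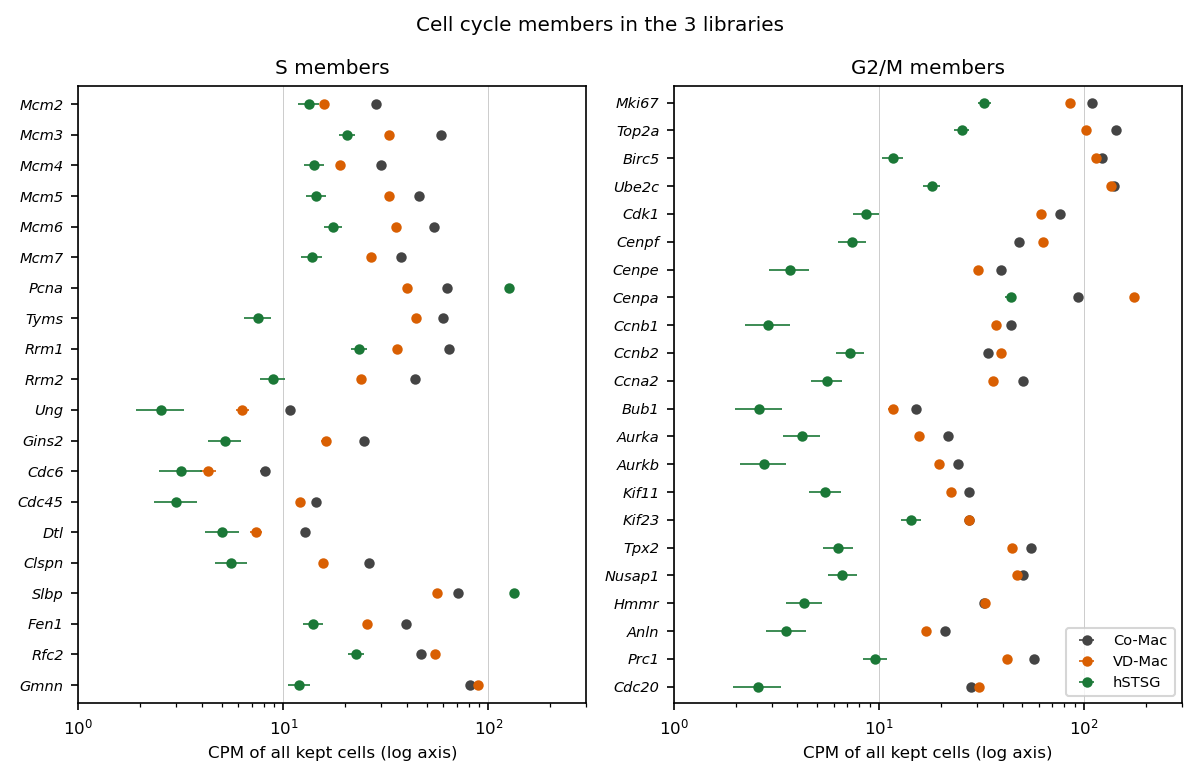
Level of each member in the 3 libraries, in CPM over all kept cells on a log axis, with exact Poisson intervals as bars, S members on the left and G2/M members on the right. The graft lies to the left of both cultures for all members except Pcna (126 CPM) and Slbp (133 CPM), and Cenpa is the member farthest to the right in VD-Mac (174 CPM).

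The listed phase of each member was checked with genes that are not members. Cycling cells were taken as those with 3 or more UMIs of 92 other cell cycle genes (40 of S phase and 52 of G2/M) once each cell was thinned to 2000 UMIs, and each was called S-leaning or G2/M-leaning by which of these lists had more UMIs. In Co-Mac macrophage-like cells, 390 leaned to S and 481 to G2/M. Of the 20 S members, 19 had an interval below 0 for the log2 ratio of G2/M-leaning over S-leaning cells, and 22 of 22 G2/M members had one above 0. *Rrm1* was the exception, with 0.02. In VD-Mac macrophage-like cells, 20 of 20 and 22 of 22 members had the sign of their list. The same held in neutrophil precursor-like cells for 22 of 22 G2/M members in both cultures and for 19 of 20 S members in each. No share over all genes is set beside these counts, and the intervals cover counting error only.

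The members were also ordered within each phase. In Co-Mac macrophage-like cells the S members farthest toward S-leaning cells were *Ung*, a uracil glycosylase (log2 -1.82), *Cdc6* (-1.44) and *Dtl* (-1.07), and in VD-Mac they were the same 3 genes, with *Ung* at -2.98 and *Cdc6* at -2.54. *Tyms*, *Rrm1*, *Rfc2* and *Fen1*, which trims Okazaki fragments, lay between -0.33 and 0.02 in Co-Mac. At the other end stood *Cenpf*, a kinetochore protein (1.64), *Cdc20* (1.41), *Ccnb1* (1.30), *Ube2c* (1.28) and *Hmmr*, a spindle protein (1.25). *Cdk1* (0.37), the kinase *Aurkb* (0.42) and *Top2a* (0.45) differed least between S-leaning and G2/M-leaning cells among G2/M members. G2/M-leaning cells were somewhat deeper than S-leaning cells, with medians of 28556 and 24225 UMIs in Co-Mac and 20996 and 18808 in VD-Mac.

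**Figure D2:**
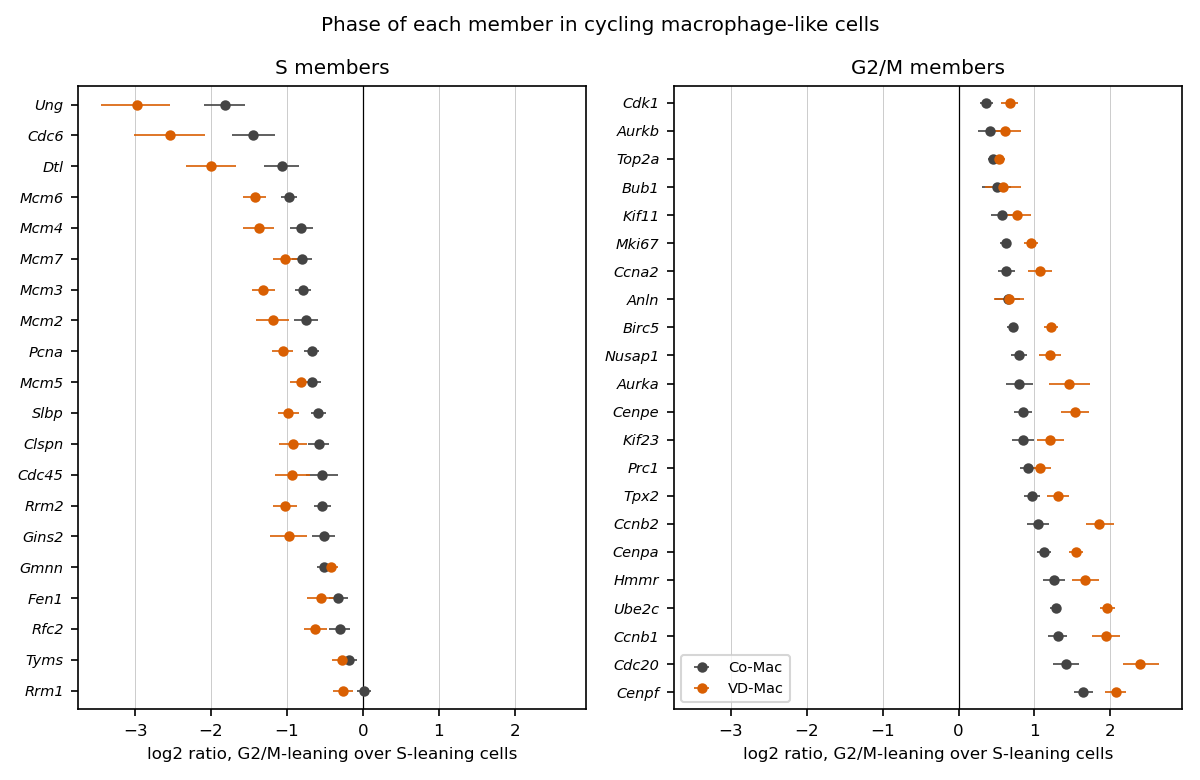
log2 ratio of CPM in G2/M-leaning over S-leaning cycling macrophage-like cells for each member, in Co-Mac and VD-Mac, with exact conditional binomial intervals as bars and members in the order of Co-Mac. Every S member of VD-Mac lies below 0 and every G2/M member above it, from Ung at -2.98 to Cdc20 at 2.40.

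For a share of cycling cells by cell type, each cell was thinned to 2000 UMIs and counted as cycling with 3 or more member UMIs. This left out shallower cells, 472 of Co-Mac, 1149 of VD-Mac and 301 of hSTSG. Of the rest, 30.7% (29.6 to 31.8) were cycling in Co-Mac, 26.4% (25.4 to 27.4) in VD-Mac and 14.2% (12.6 to 15.8) in hSTSG. Without thinning the shares were 73.6%, 71.4% and 59.1%, with cells at their own depths. Given the class make-up of Co-Mac, the VD-Mac share would be 29.4%. This value treats classes of the same name as matched and pools unnamed clusters. Different genes led the neutrophil precursor-like and granulocyte-like clusters of each culture.

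Clusters named macrophage-like held 44.2% of the cycling cells of Co-Mac and 45.7% of those of VD-Mac, shares that rest on the name given to the *Cenpf*-led cluster of each. In this class 49.7% of 1849 Co-Mac cells (47.4 to 52.0) and 50.8% of 1825 VD-Mac cells (48.5 to 53.1) were cycling, intervals that overlap. The clusters lay far apart. In Co-Mac 93.8% of the *Cenpf*-led cluster and 13.2% (11.2 to 15.5) of the other were cycling, and in VD-Mac 99.5% and 24.9% (22.4 to 27.4). By the 92 genes that are not members the other cluster stood closer, at 16.7% (14.5 to 19.1) and 22.6% (20.2 to 25.1). The members include *Cenpa*, which was higher in VD-Mac also in cells not chosen as cycling, and no share without it is given. For the whole class, the order of the cultures depended on the setting. By the 92 genes that are not members the shares were 52.1% (49.8 to 54.4) and 49.2% (46.9 to 51.5). At a clustering resolution of 0.3 they were 46.7% (44.6 to 48.8) and 52.1% (49.9 to 54.4), at 0.8 they were 47.2% (44.8 to 49.6) and 52.7% (50.3 to 55.1), and at 5000 UMIs 65.6% (63.4 to 67.8) and 71.0% (68.8 to 73.1), so the intervals did not overlap there. With cell cycle genes kept for clustering the shares were 54.5% and 18.3%. When both cultures were clustered together, a cluster with *Pclaf* and *Top2a* among its leading genes was named monocyte-like, and they were 12.0% and 50.9%, or 56.9% and 51.4% with monocyte-like clusters added.

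DC-like cells reached the threshold in 2.65% of Co-Mac and 3.35% of VD-Mac cells, at median depths of 14447 and 13700 UMIs, and by the 92 genes that are not members in 8.01% and 7.10%. The smallest Co-Mac DC-like cluster, with 87 cells, stood at 19.5%. A *Mki67* UMI was found in 0.441% and 0.181% of them, against 18.5% and 21.6% of macrophage-like cells. Neutrophil precursor-like cells were cycling in 93.8% of 599 Co-Mac cells, in a cluster led by *Prtn3* and *Elane*, genes of early granules. In VD-Mac the class was a cluster with *Ngp*, *Camp* and *Ltf*, genes of later granules, among its leading genes, and 70.1% of 274 cells were cycling. Since different genes led the 2 clusters, the shares are given side by side. Granulocyte-like cells stood at 9.82% of 672 and 17.1% of 805, with different leading genes in each library as well. By the 92 genes that are not members they stood at 19.0% (16.1 to 22.2) and 32.9% (29.7 to 36.3), so their level depends on the list. Unnamed clusters ranged widely, in Co-Mac from 1.67% of 60 cells to 60.1% of 391 (median 2854 UMIs) and in VD-Mac from 8.48% of 165 to 62.4% of 641 (median 1833 UMIs). The deepest unnamed clusters, with medians of 35008 and 31971 UMIs, stood at 45.8% and 41.9%.

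**Figure D3:**
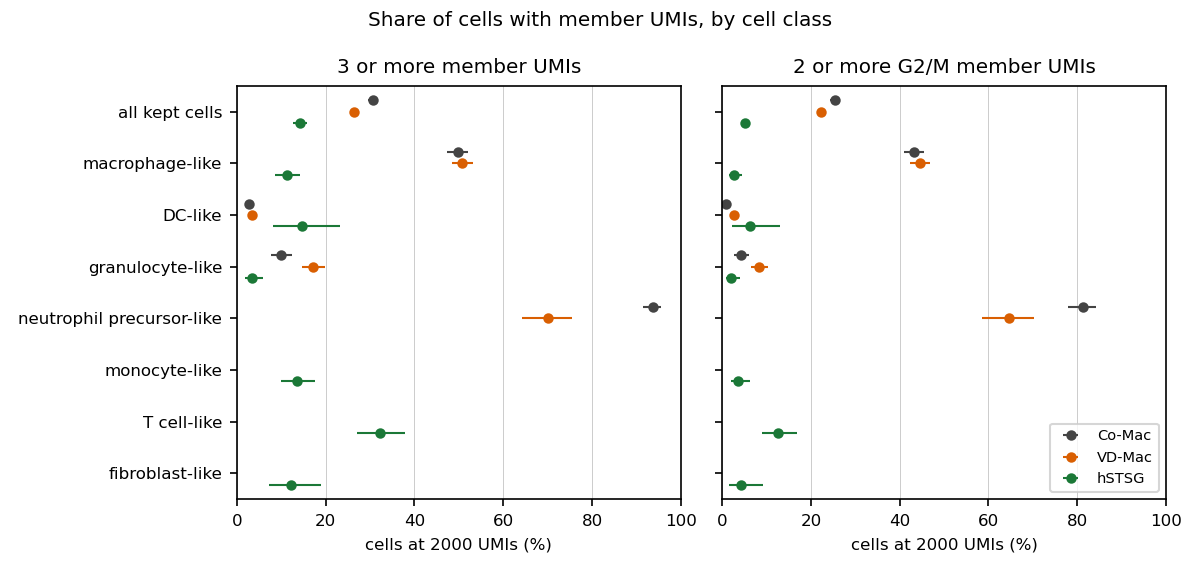
Share of cells, thinned to 2000 UMIs, with 3 or more member UMIs (left) and with 2 or more G2/M member UMIs (right), by cell class and library, with exact Clopper-Pearson intervals as bars. Macrophage-like cells of both cultures lie near 50% on the left, and T cell-like cells of the graft lie at 32.2% on the left and 12.6% on the right.

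In the graft, T cell-like cells had the highest share among named classes, 32.2% of 301 cells (27.0 to 37.8), followed by DC-like (14.6%), monocyte-like (13.5%), fibroblast-like (12.2%), endothelial-like (12.0% of 25) and macrophage-like cells (11.2% of 555, 8.67 to 14.1), whose intervals overlap. Granulocyte-like cells stood at 3.36% (1.75 to 5.80) by the members and at 15.7% (12.1 to 19.9) by the 92 genes that are not members, so their place among the classes depends on the list. By those genes T cell-like cells were at 32.6%, endothelial-like at 24.0% of 25 cells (9.36 to 45.1), fibroblast-like at 11.5%, macrophage-like at 9.73%, monocyte-like at 10.7% and DC-like at 6.25%. T cell-like cells gave 37.2% of all cycling cells of the graft. Single genes did not all follow this order. A *Mki67* UMI at 2000 UMIs was found in 3.99% of T cell-like (2.08 to 6.86) and 3.96% of macrophage-like cells (2.50 to 5.94). For *Cdk1* the shares were 0.66% and 1.08%, with intervals that overlap. For *Top2a* they were 5.32% and 1.08%, and for *Mcm5* 7.31% and 1.44%. The T cell-like cluster led by *Il17a* and *Trdc* had 38.2% (29.6 to 47.4), and that with *Nkg7* and *Cd28* among its leading genes 28.1% (21.6 to 35.3), intervals that overlap. The macrophage-like cluster with *Mmp12* and *Trem2* had 10.0% (6.98 to 13.8) and that led by *Cd163* 12.9% (8.80 to 18.0). By the 92 genes that are not members the order was the reverse in both pairs. In the same sequence, the T cell-like clusters had 30.9% (22.9 to 39.9) and 33.7% (26.8 to 41.2). The macrophage-like clusters had 10.6% (7.50 to 14.4) and 8.44% (5.16 to 12.9).

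Much of the graft signal was in *Pcna* and *Slbp*. A *Pcna* UMI at 2000 UMIs was found in 25.2% of graft macrophage-like cells (median depth 13393 UMIs) and in 16.8% of graft granulocyte-like cells (2330 UMIs), against 14.8% of Co-Mac macrophage-like cells (22997 UMIs). Without *Pcna* and *Slbp*, the share of cycling cells was 3.06% in graft macrophage-like and 16.3% in graft T cell-like cells, and stayed within its interval in macrophage-like cells of the cultures (47.7% and 48.9%). At 2 or more G2/M UMIs, the shares were 2.70% (1.52 to 4.42) in graft macrophage-like and 12.6% (9.09 to 16.9) in graft T cell-like cells, against 43.2% and 44.5% in macrophage-like cells of Co-Mac and VD-Mac. Among the 7 named graft classes of at least 25 cells, T cell-like cells had the highest CPM for 26 of the 42 members, among them *Mki67* (64.1 CPM), *Top2a* (66.6 CPM), *Mcm5* (46.7 CPM) and *Pcna* (205 CPM). Fibroblast-like cells led for 12, among them *Cenpf* (17.8 CPM) and *Ube2c* (26.8 CPM). No share over all genes is set beside these counts, so they cannot be read as particular to the members. Over the whole graft library only 6 of 22 G2/M members reached 10 CPM. *Cenpa* was highest in DC-like cells, at 139 CPM. An unnamed graft cluster of 74 cells led by *Igkc*, *Ighm* and *Cd79a* was left out of this order, and it held *Mki67* at 200 CPM (159 to 247), *Top2a* at 244 CPM and *Mcm5* at 108 CPM, above the T cell-like values. In its 31 cells that could be thinned, 38.7% (21.85 to 57.81) were cycling. At 2 or more G2/M UMIs its share was 32.3% (16.7 to 51.4).

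The late wave was spread unevenly over graft cells. In graft macrophage-like cells, 4 of 598 cells held 50% of the 1968 G2/M UMIs, and 47.2% of the cells had none. In T cell-like cells, 6 of 307 held 50% of 963, and in monocyte-like cells 32 of 370 held 50% of 556. In Co-Mac and VD-Mac macrophage-like cells, 233 of 1849 and 213 of 1827 cells did. In graft T cell-like cells 44 cells leaned to S and 45 to G2/M, and at this depth 5 of 20 S members and 1 of 22 G2/M members had an interval on the side of their list, with 1 S member on the other side. Of the 98 T cell-like cells chosen as cycling by the genes that are not members, 45 stood at the threshold itself. The S and G2/M lists differed by 1 UMI or less in 46 of them, so many of these leanings are uncertain.

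VD-Mac and Co-Mac were compared first over all macrophage-like cells. S members summed to 1044 CPM in Co-Mac and 917 in VD-Mac, a log2 ratio of -0.19 (-0.21 to -0.17), and G2/M members to 1784 and 2346 CPM, a log2 ratio of 0.39 (0.38 to 0.41). All 42 members passed the minimum of 10 CPM in the higher library. Of the S members 16 were lower and 4 higher in VD-Mac, with a median log2 ratio of -0.38, and of the G2/M members 19 were higher and 3 lower, with a median of 0.24. Over the 7809 genes tested the median was -0.09, with 40.6% higher. A gene was called at 2-fold or more, and 1 of 42 members, *Cenpa*, was called, higher in VD-Mac. The background was 3.64% of all genes called higher and 5.54% called lower. These values differed between settings, and 12 members were called with cells under 5% mitochondrial UMIs (S members at 0.22), where 38.6% of all genes were called, and 3 at a resolution of 0.3 (S members at 0.016), where 9.4% were. With cell cycle genes kept for clustering 37 members were called (G2/M members at -2.72) against 13.4% of all genes, and with both cultures clustered together 33 were (S members at 1.28) against 14.4%.

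*Cenpa* went from 128 CPM in Co-Mac to 300 in VD-Mac (log2 1.23, 1.19 to 1.28). *Cenpf* went from 74.6 to 144 CPM (0.95) and *Cdc20* from 34.7 to 60.4 CPM (0.80). The S members farthest from 0 were *Cdc6*, at 11.5 and 6.79 CPM (-0.76), *Gins2*, a helicase cofactor, at 32.9 and 20.7 CPM (-0.67), and *Mcm3*, at 76.5 and 51.7 CPM (-0.56). *Mki67* had 156 and 185 CPM (0.25, 0.20 to 0.29) and *Pcna* 89.7 and 65.6 CPM (-0.45). *Top2a* (208 and 205 CPM, -0.02) and *Mcm5* (59.7 and 59.2 CPM, -0.01) had intervals that include 0. The median G2/M member thus lay above the median gene and the median S member below it.

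In all kept cells, 17 of 19 S members and 16 of 22 G2/M members tested were lower in VD-Mac, with sums at log2 -0.47 and -0.08, and 0 of 41 members were called, against 2.16% of all genes called higher and 4.63% called lower. The median gene was at -0.10, with 39.0% of genes higher. The S members that passed the minimum ranged from -0.86 (*Rrm2*) to 0.23 (*Rfc2*), with *Mcm2* at -0.85 and *Mcm3* at -0.84, and *Cdc6*, under the minimum, was at -0.92. G2/M members ranged from -0.49 (*Ccna2*) to 0.89 (*Cenpa*). *Mki67* stood at -0.35, *Top2a* at -0.48, *Pcna* at -0.65 and *Mcm5* at -0.48. This comparison also holds the difference in class make-up, with 600 neutrophil precursor-like cells in Co-Mac and 275 in VD-Mac.

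The second reading was within cycling cells. Chosen by the 92 genes that are not members, 963 Co-Mac and 898 VD-Mac macrophage-like cells were cycling, with median depths of 27569 and 20171 UMIs against 20422 and 15069 in the other macrophage-like cells. At the threshold itself stood 100 and 118 cells, and 194 and 173 cells were 1 UMI short of it. Within cycling cells, 22 of 22 G2/M members were higher in VD-Mac, 21 of them with an interval above 0, and their sum went from 2790 to 3916 CPM, a log2 ratio of 0.49 (0.48 to 0.50). S members went from 1489 to 1340 CPM, -0.15 (-0.17 to -0.13), with 14 of 20 lower. The median over all 7924 genes was -0.10, with 40.3% higher in VD-Mac. No share over all genes is given for intervals above 0. Both members called were G2/M members and higher in VD-Mac, with 3.43% of all genes called higher and 5.74% called lower.

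The called members were *Cenpa*, at 184 and 438 CPM (log2 1.25, 1.20 to 1.30), and *Cenpf*, at 119 and 248 CPM (1.06, 1.00 to 1.12). *Cdc20* followed with 54.3 and 104 CPM (0.93), *Ccnb2*, the second B cyclin, with 70.1 and 126 CPM (0.84), and *Hmmr* with 76.4 and 127 CPM (0.73). *Mki67* was at 244 and 310 CPM (0.35, 0.30 to 0.40) and *Top2a* at 329 and 354 CPM (0.10, 0.06 to 0.15). *Aurka*, a spindle pole kinase, had the smallest ratio of a G2/M member (0.10) and an interval that includes 0. The S members farthest from 0 were *Cdc6* (16.8 and 10.5 CPM, -0.69), *Gins2* (46.4 and 31.1 CPM, -0.58) and *Ung* (19.6 and 13.2 CPM, -0.57). *Pcna* was at -0.34 and *Mcm5* at 0.02, with 87.9 and 88.8 CPM. *Gmnn* (145 and 193 CPM, 0.41), *Rfc2* (0.37) and *Cdc45*, a subunit of the active replicative helicase (0.30), were higher in VD-Mac against the trend of their list.

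The ratios were then set beside the order of the G2/M members in Co-Mac. *Cenpf*, *Cdc20*, *Ccnb1*, *Ube2c* and *Hmmr*, the 5 G2/M members farthest toward G2/M-leaning cells, had ratios of 1.06, 0.93, 0.47, 0.54 and 0.73, and *Cdk1*, *Aurkb*, *Top2a*, *Bub1* and *Kif11*, the 5 nearest to 0, had 0.23, 0.26, 0.10, 0.35 and 0.35. Both measures use the same Co-Mac cells, and the share of G2/M-leaning cells differed between the cultures, so the 2 orders are not independent. Of the members between these groups, *Aurka* (0.80 in the order) had a ratio of 0.10 and *Cenpa* (1.12) had 1.25. G2/M members made up 65.2% of the member UMIs of cycling Co-Mac cells (64.9 to 65.5) and 74.5% of those of VD-Mac (74.2 to 74.8). By the genes that are not members, 55.2% of Co-Mac cells that leaned to a phase leaned to G2/M (51.9 to 58.6), and 68.0% of VD-Mac cells (64.7 to 71.1). The lists differed by 1 UMI or less in 296 and 224 of these cells.

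S-leaning and G2/M-leaning cells were then compared apart. In S-leaning cells, 390 of Co-Mac and 271 of VD-Mac, the S members had 1827 and 1911 CPM (log2 0.07, 0.03 to 0.10) and the G2/M members 1953 and 2000 CPM (0.03, 0.00 to 0.07), with 10 of 20 and 10 of 22 members higher. In G2/M-leaning cells, 481 and 576, the G2/M members had 3502 and 4873 CPM (0.48, 0.46 to 0.49), with 22 of 22 higher, and the S members 1227 and 1057 CPM (-0.22), with 6 of 20 higher. The ratio of the G2/M members was thus 0.48 in G2/M-leaning cells and 0.03 in S-leaning cells. Cells were split by S and G2/M genes that are not members, and the split itself differed between the cultures. A cell with more G2/M RNA tends to fall in the G2/M-leaning group, so the 0.03 cannot be read alone. No share over all genes is given for either group. Whether the 0.48 rests on more cells in late mitosis or on more RNA of the G2/M members in each such cell was not tested.

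The direction depended in part on how cells were grouped. G2/M members stayed higher in VD-Mac cycling cells, and S members stayed lower, without any cell class (log2 0.25 and -0.31 over 2370 Co-Mac and 2294 VD-Mac cycling cells of every cluster). These values also hold the difference in class make-up. Among cells cycling by the members, neutrophil precursor-like cells were 27.0% in Co-Mac and 9.47% in VD-Mac. For S members of cycling macrophage-like cells the ratio was 0.0062 at a clustering resolution of 0.3, 0.23 with cells under 5% mitochondrial UMIs, and 0.66 with both cultures clustered together, where G2/M members were at 3.00. For G2/M members it was -2.43 when cell cycle genes were kept for clustering, where the *Cenpf*-led cluster of VD-Mac was named neutrophil precursor-like.

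**Figure D4:**
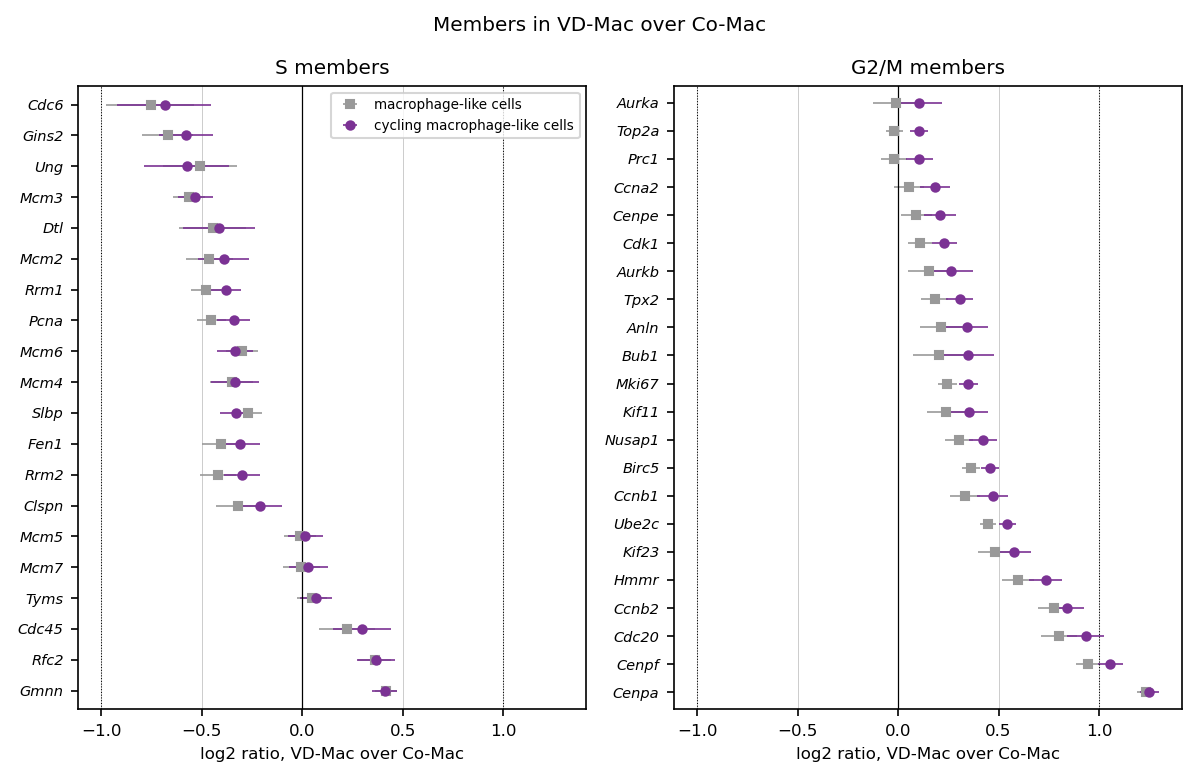
log2 ratio of CPM in VD-Mac over Co-Mac for each member, in all macrophage-like cells (squares) and in cycling macrophage-like cells (circles), with exact conditional binomial intervals as bars and dotted lines at 2-fold. All circles of G2/M members lie above 0, from Aurka at 0.10 to Cenpa at 1.25, and 14 of the 20 S members lie below 0.

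*Cenpa* was higher in VD-Mac also in cells that were not chosen as cycling, and over all DC-like cells. In DC-like cells it had 13.2 CPM in Co-Mac and 67.3 in VD-Mac (log2 2.35, 2.22 to 2.48), and was the 1 member called of the 9 that passed the minimum, with 2.17% of all genes called higher and 2.72% called lower. The other 21 G2/M members together had 52.1 and 48.1 CPM there (-0.12, -0.20 to -0.03). The S members of DC-like cells had 229 and 225 CPM (-0.03, -0.07 to 0.01), with *Tyms* (30.5 and 17.1 CPM), *Gmnn* (22.1 and 31.9 CPM) and *Mcm3* (15.6 and 10.8 CPM) farthest from 0 among those that passed the minimum. In macrophage-like cells that were not chosen as cycling, *Cenpa* had 37.8 and 120 CPM (1.66, 1.54 to 1.78). *Ccnb2* had 9.60 and 20.0 CPM there (1.06) and *Ube2c* 13.7 and 23.4 CPM (0.77). Among S members, *Gmnn* had 37.4 and 66.7 CPM (0.83), *Tyms* 11.5 and 19.6 CPM (0.77) and *Gins2* 11.4 and 7.01 CPM (-0.70). In the same cells *Mki67* had 16.3 and 19.6 CPM, *Top2a* 15.0 and 9.91 CPM, *Pcna* 55.1 and 36.2 CPM, and *Mcm5* 15.1 and 20.5 CPM. In DC-like cells *Mki67* had 2.81 and 2.09 CPM, *Top2a* 7.79 and 7.28 CPM, *Pcna* 14.6 and 14.1 CPM, and *Mcm5* 5.31 and 4.78 CPM.

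Without *Cenpa*, the G2/M members of G2/M-leaning macrophage-like cells were still higher in VD-Mac, at 3256 and 4311 CPM (0.40, 0.39 to 0.42). In granulocyte-like cells of Co-Mac and VD-Mac, S members summed to 432 and 737 CPM and G2/M members to 127 and 312 CPM. No share over all genes is set beside these sums. The cells came from 2 clusters in Co-Mac, led by *Csf3r* and by *Apoe* and *Lcn2*, and 1 in VD-Mac, led by *Mmp9*, so the values are given side by side. Their median depths were 3023 and 2842 UMIs.

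Regulators upstream of the members were read from a list of 43 genes. In macrophage-like cells 38 of them passed the minimum, 7 were called higher and 4 lower in VD-Mac, where 3.64% of all genes were called higher and 5.54% lower. Over all kept cells, with no cell class, 36 passed, 1 was called higher (*Tob1*, 1.49) and 5 lower (*Ccnd1* at -2.10, *Cdk6*, *E2f2*, *Ccnd3* and *Cdc25a*), where 2.16% of all genes were called higher and 4.63% lower. There *Ccnd2* (0.82) and *Cdkn1b* (0.86) stayed under 2-fold. In macrophage-like cells 3 of the 7 G1 cyclins and kinases were called lower and 1 higher. *Ccnd1*, cyclin D1, had 80.7 CPM in Co-Mac and 18.6 in VD-Mac (log2 -2.12), *Ccnd3* 106 and 41.7 CPM (-1.34), and their partner kinase *Cdk6* 101 and 41.5 CPM (-1.28). *Ccnd2* went the other way, with 154 and 422 CPM (1.45, 1.41 to 1.49). The 3 cyclin D genes thus differed in direction.

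Of the 7 CDK inhibitors, 4 passed the minimum in macrophage-like cells, with 3 higher and 1 lower in VD-Mac. *Cdkn1b*, which encodes p27, had 15.6 and 31.6 CPM (1.02, 0.89 to 1.15) and was the 1 called, higher. *Cdkn1a*, which encodes p21 and responds to p53, had 455 and 253 CPM (-0.85, -0.88 to -0.81) and stayed under 2-fold. Of the RB and E2F family *E2f2* was called lower (27.0 and 12.8 CPM, -1.08), and *E2f1* stood at 28.8 and 20.1 CPM (-0.52). *Foxm1*, the driver of the mitotic wave, had 12.7 and 12.3 CPM (-0.04, -0.22 to 0.14), and *Myc* 25.1 and 25.9 CPM (0.04, -0.08 to 0.16). 5 genes of growth and arrest were called higher: *Tob1*, an antiproliferative gene of the BTG family (16.0 and 75.3 CPM, 2.24), *Gadd45a* (7.19 and 24.6 CPM, 1.77), *Btg2* (87.0 and 208 CPM, 1.26), the MAX partner *Mxd1* (8.78 and 18.9 CPM, 1.11) and *Gadd45b* (12.2 and 26.0 CPM, 1.09).

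Within cycling macrophage-like cells 39 regulators passed the minimum, 4 were called higher and 5 lower, against a background of 3.43% of all genes called higher and 5.74% lower. *Ccnd1* (-2.16), *Ccnd3* (-1.47) and *Cdk6* (-1.36) were again called lower, with *Cdkn1a* (489 and 235 CPM, -1.05) and *E2f7*, a repressor of the E2F family (15.1 and 7.11 CPM, -1.08). *Tob1* (2.40), *Ccnd2* (1.41), *Gadd45a* (1.35) and *Cdkn1b* (1.02) were called higher. *Foxm1* was at 0.10 (-0.08 to 0.28), *E2f1* at -0.46 and *Myc* at -0.09 (-0.25 to 0.07).

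**Figure D5:**
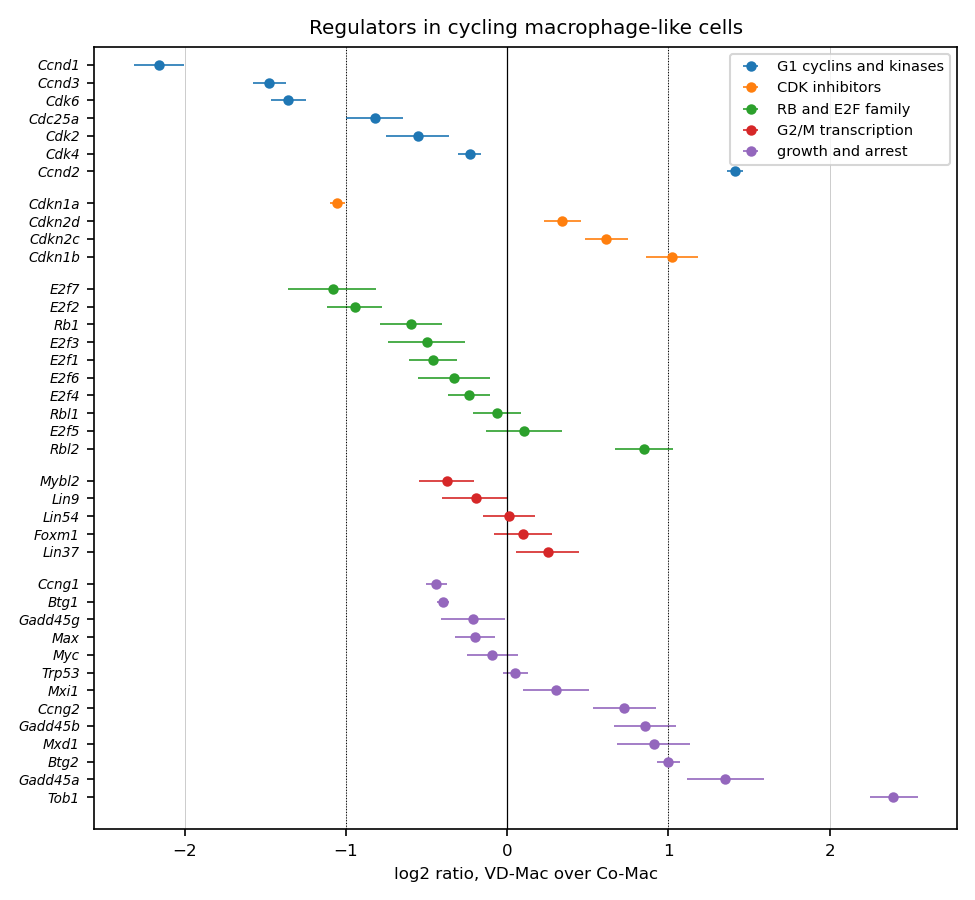
log2 ratio of CPM in VD-Mac over Co-Mac for the 39 regulators that passed the minimum in cycling macrophage-like cells, by group, with exact conditional binomial intervals as bars and dotted lines at 2-fold. Ccnd1 lies farthest to the left (-2.16) and Tob1 farthest to the right (2.40), and Ccnd2 (1.41) lies apart from Ccnd1 and Ccnd3.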

How the data were processed

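For each of 3 libraries (10x 3′ v3 chemistry) the authors deposited a matrix of UMI counts, not normalized, with mouse genes by barcodes. The study's methods name Cell Ranger for alignment and counting, and the submitters' processing notes name Cell Ranger and Seurat 3.1.1. Sources differ on the genome (the notes list mm9, the methods a human build), while all gene identifiers are mouse, so the build of the counts is not settled. Promoter coordinates are GRCm38.p6 from RefSeq. Hashtag counts were left out, since no source maps them to mice.

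Kept barcodes had at least 300 genes, fewer than 100000 gene UMIs and under 10% mitochondrial UMIs (92.3% of Co-Mac, 90.1% of VD-Mac and 81.1% of hSTSG). Doublets were kept; Scrublet in scanpy 1.11.5 called 1, 0 and 5 cells at its automatic threshold, so this caller did not work here, and an alternative left out the 421, 623 and 37 cells with the highest scores. Each library was clustered with Seurat 5.3.0 in R 4.3.3 (2000 variable genes without any gene of the cell cycle lists, 15 components, 15 neighbors, resolution 0.5). Names came from marker scores, the mean log2 ratio of a set's markers against the other clusters (5 CPM added to each level): the top set named a cluster if it had 3 or more detected markers and a score of 0.5 or more. A cluster of low depth also needed a marker among its 10 leading genes, and a cluster with more leading markers of another type stayed unnamed. The naming rule was set once clusters had been looked at.

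UMIs were summed over the cells of a group and divided by their gene UMIs to give CPM. All intervals are exact 95% intervals: levels have Poisson, ratios conditional binomial and shares Clopper-Pearson intervals. For shares, each cell was thinned to 2000 UMIs without replacement. Calls needed a minimum of 10 CPM in the higher library and a 2-fold difference. A gene with 0 counts was set to 3 counts in ratios over all genes. The named genes are the 3 S and 3 G2/M members farthest from 0, all called members and *Mki67*, *Top2a*, *Pcna* and *Mcm5*, and of regulators all called genes and *Cdkn1a*, *Cdkn1b*, *Ccnd1*, *Myc*, *Foxm1* and *E2f1*; others named in the text were chosen after their values were seen. The members, lists and comparisons were chosen with earlier results of these data known. Counts of 7545 genes were simulated for VD-Mac over Co-Mac in macrophage-like cells, with Poisson error only. There 200 of 200 genes changed 4-fold were called with 0 unchanged genes, and 95.0% of the intervals held the simulated ratio. The draws held no differences between cells or cultures, so they check the arithmetic and not how often calls in the data are false. Python 3.11.15 with numpy 2.4.6, scipy 1.17.1, pandas 2.3.3 and matplotlib 3.10.9 was used. Other cells' RNA in droplets was not removed, and human cells of the graft were not analysed here.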

Additional observations from a re-analysis of the deposited data

How the results depend on the processing

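No paired analysis was possible because each condition has 1 library and no result comes from a test. The cycling shares of macrophage-like cells in Co-Mac, VD-Mac and hSTSG and of T cell-like cells in hSTSG (49.7%, 50.8%, 11.2% and 32.2%) scaled with depth and threshold: 36.3%, 38.3%, 3.38% and 12.7% at 1000 UMIs, 65.6%, 71.0%, 43.0% and 74.6% at 5000 UMIs, 58.2%, 60.7%, 28.8% and 54.8% at 2 or more UMIs, and 41.4%, 40.6%, 2.70% and 9.97% at 5 or more. Leaving out *Pcna* and *Slbp*, chosen after seeing the data, gave 3.06% and 16.3% in the graft classes. With genes that are not members the culture shares were 52.1% and 49.2%, in the reverse order.

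Filters and clustering moved the culture values, given here as the Co-Mac share and then the log2 ratios of S and G2/M members in all and in cycling macrophage-like cells. At least 300 UMIs gave 47.4%, -0.080, 0.45 and, for S members of cycling cells, -0.075. Under 5% mitochondrial UMIs gave 56.3% (VD-Mac 62.2%), 0.22 for S members of all cells, 0.23 for S and 0.34 for G2/M members of cycling cells, and 12 members called. Removal of the highest Scrublet scores gave -0.22, 0.37, -0.19 and 0.47. Resolution 0.3 gave 46.7% (VD-Mac 52.1%), 0.016, 0.57, 0.0062 and 0.59, with 3 members called, and resolution 0.8 gave 47.2% (VD-Mac 52.7%), -0.072, 0.52, -0.10 and 0.52, with 2 called against 9.47% of all genes. Cell cycle genes kept for clustering gave 54.5% (VD-Mac 18.3%), -1.29, -2.72, -0.80 and -2.43, with 37 called, and both cultures clustered together gave 12.0%, 1.28, 3.69, 0.66 and 3.00, with 33 called. In the first of these the *Cenpf*-led cluster of VD-Mac was named neutrophil precursor-like, and in the second a cluster with *Pclaf* and *Top2a* was named monocyte-like.

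The next alternatives were added after seeing the data, except where named as planned. Monocyte-like clusters added to the joint clustering gave 56.9%, -0.26, 0.30 and, for G2/M members of cycling cells, 0.47. The 2 deep unnamed clusters added gave -0.23, 0.33, -0.21 and 0.43. Leaving out *Cenpa*, *Cenpf*, *Gmnn* and *Rfc2* gave -0.31, 0.27, -0.26 and 0.38, and cycling cells of every cluster gave -0.31 and 0.25. Of the planned ones, the mean over cells gave -0.22 for S members of all cells, and -0.24 and 0.44 in cycling cells, and centring on the median gene gave -0.095, 0.49, -0.055 and 0.59, with 2 members called against 9.19% of all genes. Choosing cycling cells by the other phase gave -0.20 and 0.37, and by 5 or more outside UMIs 0.51 for G2/M members. At 1.5-fold 7 of 42 members were called, where 22.2% of all genes were. The cause of these shifts was not tested beyond the class change named above. Depth limits single members in the graft, where 16 of 22 G2/M members lay under 10 CPM.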
